A study of Mus musculus with 6 samples.

Results

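The genes described here encode the protein core of the splicing machinery: every protein-coding gene of the deposited table whose name begins with Srsf and a digit, Hnrnp, Snrp, Snrnp, Sf3a, Sf3b or Prpf. There were 72 of them among 54532 rows, in 6 classes by prefix: 11 Srsf, 20 Hnrnp, 12 Snrp, 7 Snrnp, 9 Sf3 and 13 Prpf genes. A further 5 rows with such names were not protein-coding and were left out. The samples were wild-type primary mouse macrophages, 3 pretreated for 6 h with rmMETRNL (by its name a recombinant mouse form of the secreted protein meteorin-like) and 3 with vehicle. All 6 were then challenged with the yeast Candida albicans for 6 h, so no sample was left without the challenge. RNA was sequenced as 1 library a sample. The table's short column names were read by their letters as rmMETRNL or vehicle, and the direction of every difference below rests on that reading. Whether the 3 samples of each group are separate animals or cultures is not in the labels, so the p-values below speak of the variation among these libraries, technical or not.

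Splicing removes introns from pre-mRNA in the nucleus. Small nuclear ribonucleoprotein particles (snRNPs) assemble on the splice sites and branch point to form the spliceosome. Each is a small nuclear RNA bound by particle-specific proteins, and most carry a ring of Sm proteins. SR proteins (Srsf) and heterogeneous nuclear ribonucleoproteins (Hnrnp) bind exons and introns and set which sites are used, often with opposite effects. In macrophages, stimulated genes are spliced as they are transcribed, and splicing regulators are known to shape the inflammatory response.

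Each library held 13235001 to 18145733 reads in genes, and the 72 members took 0.697% to 0.725% of them. All 10 macrophage markers checked, among them Adgre1 and Csf1r, were above 1 FPKM, with sums of 9455 to 9747 FPKM in rmMETRNL libraries and 9695 to 10238 FPKM in vehicle libraries. The extraction text of the labels speaks of retinas, yet none of 12 retina markers reached 1 FPKM and 4 were at 0 in every library. Of the markers of other cells, 1 of 8 neutrophil genes, 3 of 6 B cell genes, 3 of 6 fibroblast genes, 1 of 5 dendritic cell genes, 1 of 4 mesothelial genes and 0 of 8 T and NK cell genes were above 1 FPKM. The B cell sums were 18.5 to 21.2 FPKM in rmMETRNL libraries and 17.3 to 22.0 FPKM in vehicle libraries, and the sums of every other list checked overlapped between the groups too. The part of such cells in the results was not tested.

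Of the 72 members, 69 had a mean of at least 1 FPKM (fragments per kilobase of gene, scaled to library size) over the 6 libraries and were tested among the 9867 genes above that level. Hnrnpr fell just short, with 1.07, 1.13 and 0.896 FPKM in rmMETRNL libraries and 0.990, 0.960 and 0.928 FPKM in vehicle libraries. Srsf12 had 0 to 5 reads a library, and Snrpn, which is best known from neurons, was listed at 0 in all. Of the exon bases of Snrpn, 34.1% overlap other annotated genes, and how reads there were counted is not given. Among the tested members, mean levels ran from 1.24 FPKM for Prpf40b to 110.9 FPKM for Hnrnpa0, with a median of 13.3 FPKM against 5.88 FPKM over all tested genes. The Hnrnp class was the most abundant, with a median of 30.9 FPKM, followed by Srsf at 15.2, Sf3 at 11.6, Snrp at 11.3, Snrnp at 8.92 and Prpf at 6.22 FPKM.

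No member was called different between rmMETRNL and vehicle (limma on log2(FPKM + 1), Benjamini-Hochberg adjusted over 9867 genes, threshold 0.05). Nor was any other tested gene (0.0%), and the lowest adjusted p was 0.103 over all genes and 0.151 among members. At an unadjusted p under 0.05 stood 6 members, against 1448 of all tested genes (14.7%). With voom, limma's test on reads recovered from the FPKM values, 91 genes were called (0.922%), none of them a member; at an unadjusted p under 0.05 that test had 6 members higher and 7 lower, against 15.7% of all tested genes in either direction. The log2 fold change, rmMETRNL minus vehicle throughout, was positive for 35 members and negative for 34, with a median of 0.00034 against -0.0056 over all tested genes, of which 48.4% were positive. It lay within 0.1 either way for 44 of the 69, and beyond 0.3 for Snrpg, Snrnp25 and Snrpf. On the log2(FPKM + 1) scale, the 95% interval of the log2 fold change stayed within 0.5 either way for 65 of the 69. The median distance from the estimate to its bound was 0.17. The 4 exceptions were Snrpg, Snrpf, Snrpe and Sf3a2. That scale understates changes of low genes, so the limit of 0.5 does not bound the fold change in FPKM itself.

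The 3 rmMETRNL values lay wholly above or below the 3 vehicle values for 11 members (15.9%), against 21.5% of all tested genes. Hnrnpm, Hnrnpu, Hnrnpf and Srsf9 were wholly above vehicle (10.9% of all tested genes were), and 7 members, among them Snrnp25, Sf3a1, Sf3a2, Prpf4b, Prpf31 and Srsf11, were wholly below (10.6% of all tested genes were). Neither count exceeds what all tested genes gave.

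**Figure D1:**
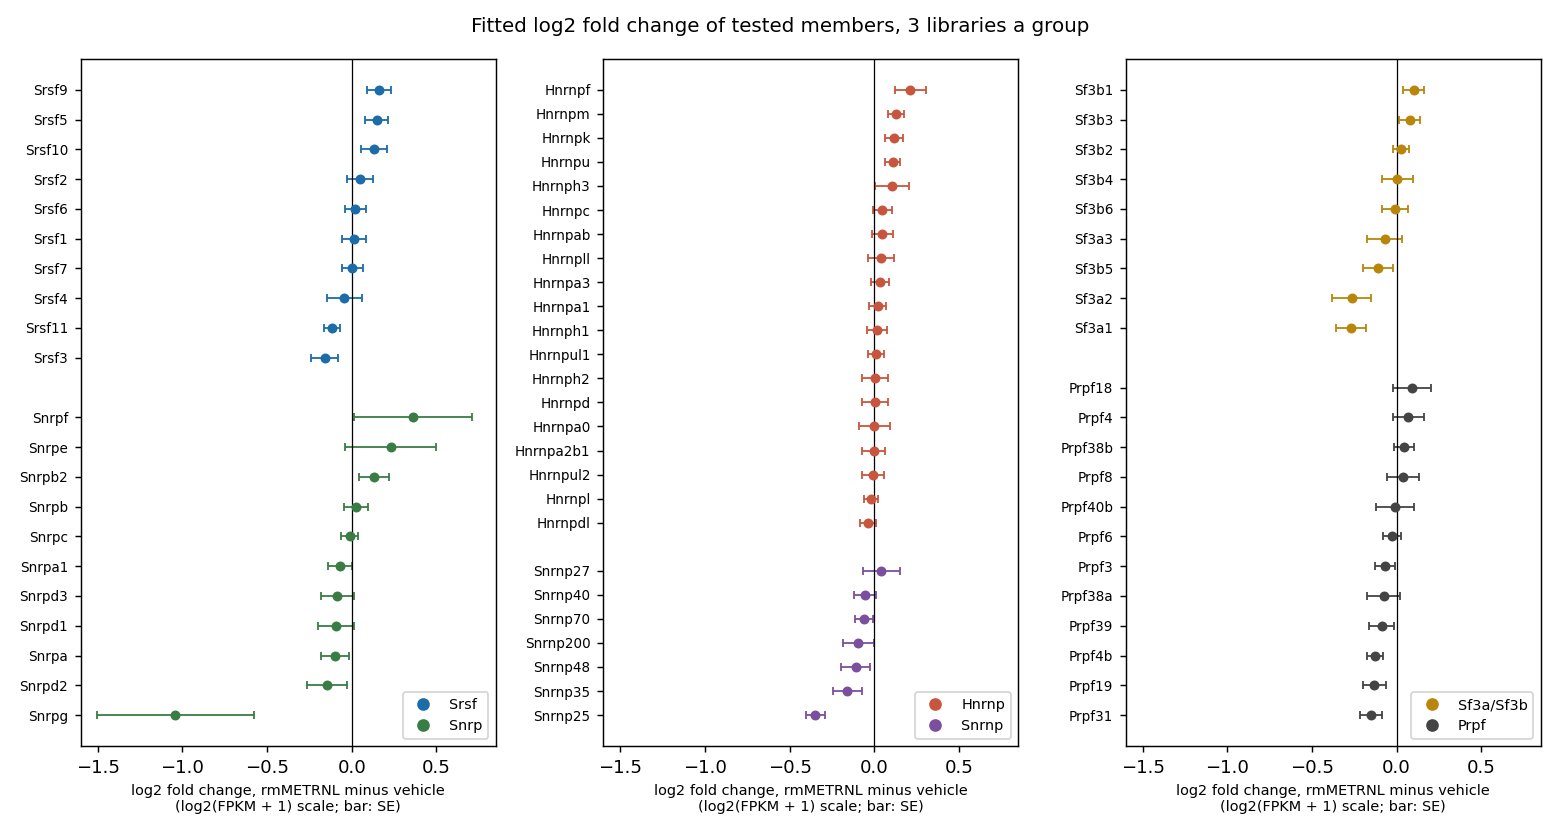
Fitted log2 fold change, rmMETRNL minus vehicle on the log2(FPKM + 1) scale, of tested members, grouped by class; bars are the standard error of the fit on 3 libraries a group. Most points lie within 0.1 of 0; Snrpg, Snrnp25 and Snrpf lie beyond 0.3, Snrpg and Snrpf with wide bars.

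By class, the median log2 fold changes were 0.017 for Srsf (7 positive, 3 negative), 0.022 for Hnrnp (15 and 4), -0.067 for Snrp (4 and 7), -0.094 for Snrnp (1 and 6), -0.012 for Sf3 (4 and 5) and -0.066 for Prpf (4 and 9). The sign of the Sf3 median is not stable: it was 0.0084 in TPM, 0.0065 with the length trend removed and 0.0084 without members that share sequence. Only Hnrnp had more than 1 member wholly above vehicle, with 3 of 19 (15.8%, against 10.9% of all tested genes). Prpf had the most wholly below, with 3 of 13 (23.1%, against 10.6% of all tested genes). Counts this small lie close to those shares and were not tested. Averaged over its tested genes in each library, relative to the vehicle mean, the Prpf class stood at -0.038, -0.043 and -0.038 log2 in rmMETRNL libraries and at 0.0078, -0.0062 and -0.0016 in vehicle libraries. The Snrnp class mean was likewise below every vehicle value in all 3 rmMETRNL libraries, at -0.16, -0.052 and -0.13 against -0.016, 0.044 and -0.029. So was the Sf3 class mean, at -0.030, -0.054 and -0.087 in rmMETRNL libraries and 0.042, -0.023 and -0.019 in vehicle libraries. There the highest rmMETRNL value and the lowest vehicle value nearly touched. Sf3a1 and Sf3a2 had the most negative log2 fold changes of that class, at -0.27 each. The Srsf, Hnrnp and Snrp means overlapped between the groups. Averaged over all tested genes, the deviation was -0.0031, -0.0068 and -0.019 in rmMETRNL libraries and -0.0031, 0.0016 and 0.0015 in vehicle libraries, so that background leans the same way by a smaller amount. The class means are descriptions and were given no test. Across the 69 members the fold change rose with the mean level (Pearson r 0.30, Spearman rho 0.44, across genes that share the same 6 libraries). The classes also differ in mean level, and class was not tested apart from level. Among members the fold change had little relation to gene length (r 0.083, rho -0.039). Over all 9867 tested genes that relation was r 0.073 and rho 0.16. Single libraries leaned with length there: deviations correlated with log2 length at r 0.20 in rmMETRNL library 3 and -0.14 in vehicle library 3. The part of length in the member values was not tested.

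**Figure D2:**
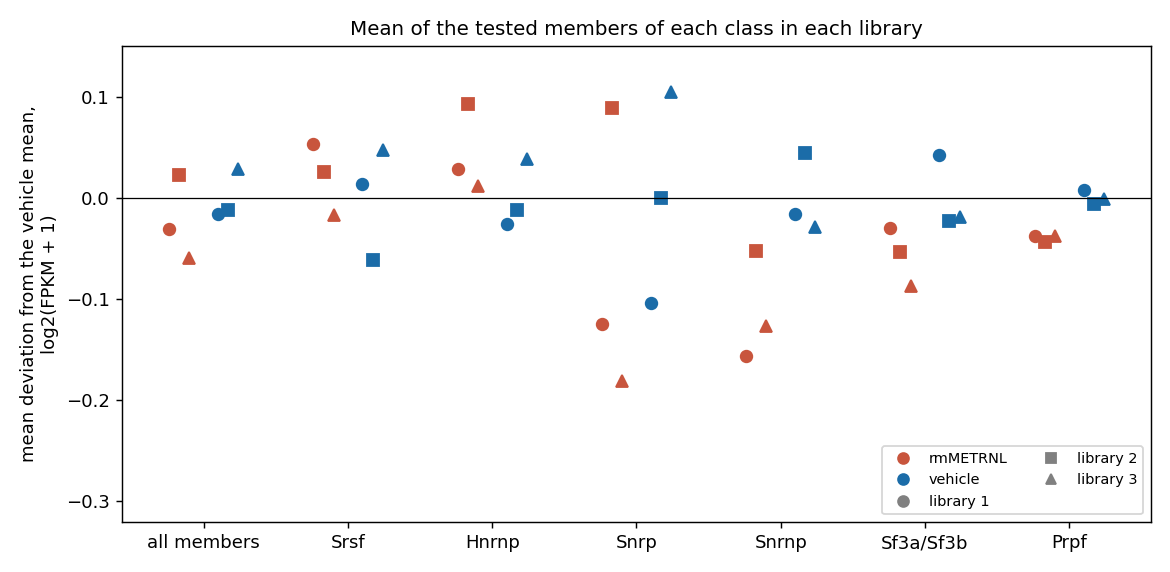
Mean deviation of the tested members of each class from the vehicle mean, in log2(FPKM + 1) units, for each of the 6 libraries. The Snrnp, Sf3 and Prpf means of the rmMETRNL libraries lie below every vehicle library, for Sf3 by a narrow gap. Snrp scatters widest, with rmMETRNL libraries from -0.18 to 0.089.

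The Snrnp class holds proteins specific to single particles, and the member with the lowest adjusted p of all 72. Snrnp25, a protein of the U11/U12 particle that recognises the rare U12-type introns, had 5.81, 5.51 and 5.31 FPKM in rmMETRNL libraries and 7.16, 7.55 and 7.28 FPKM in vehicle libraries. The lowest vehicle value was above the highest rmMETRNL value, and the means were 5.54 ± 0.251 and 7.33 ± 0.196 FPKM (SD, n = 3 each). The log2 fold change was -0.35 (SE 0.056; limma adjusted p 0.151; voom adjusted p 0.222), with a 95% interval of -0.48 to -0.22. The gene (ENSMUSG00000040767) lies at chr11:32205415-32208984 (GRCm38), plus strand. These values rest on only 82 to 138 reads a library: counting alone would give a spread of 9.82%, and the libraries of a group spread by 3.49%, so they lay closer together than read counting accounts for. Its SE is thus below what read counting alone would give.

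The other U11/U12 proteins of the class were also lower on average, with overlapping groups. Snrnp35 had 7.45, 9.22 and 8.46 FPKM in rmMETRNL libraries, against 10.1, 9.50 and 8.77 FPKM in vehicle libraries (log2 fold change -0.16, SE 0.087; limma adjusted p 0.451). Snrnp48 had 2.82, 2.91 and 2.72 FPKM in rmMETRNL libraries, against 2.78, 3.57 and 3.04 FPKM in vehicle libraries (log2 fold change -0.11; limma adjusted p 0.606). Of the minor-spliceosome proteins outside the named classes, 6 of 8 listed genes were tested, 3 on each side of 0 with a median log2 fold change of 0.025 and none called. Rnpc3, which binds the U11 and U12 particles together, was on the opposite side to Snrnp25, at 2.01 ± 0.0524 FPKM with rmMETRNL and 1.67 ± 0.109 FPKM with vehicle (log2 fold change 0.18; limma adjusted p 0.354).

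Snrnp70, the U1 protein that contacts SR proteins at the 5' splice site, was the most abundant of the class. It had 19.6, 18.9 and 17.9 FPKM with rmMETRNL and 19.3, 20.4 and 19.3 FPKM with vehicle (log2 fold change -0.062; limma adjusted p 0.624). Snrnp200, the helicase that unwinds the U4/U6 pair, averaged 10.5 ± 1.12 FPKM with rmMETRNL and 11.2 ± 0.920 FPKM with vehicle. Snrnp40, a U5 protein, averaged 3.52 ± 0.178 and 3.69 ± 0.161 FPKM. Snrnp27, of the tri-snRNP, was the only one of the 7 on the positive side, at 10.8 ± 1.61 FPKM with rmMETRNL and 10.4 ± 0.876 FPKM with vehicle.

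The Sf3 class makes up the SF3a and SF3b complexes of the U2 particle, which bind the branch point. Sf3a1 and Sf3a2, both of SF3a, were wholly below vehicle, 2 of the 9 Sf3 genes (22.2%, against 10.6% of all tested genes). So small a count was not tested. Sf3a1 had 5.01, 4.42 and 5.16 FPKM in rmMETRNL libraries and 6.76, 5.95 and 5.48 FPKM in vehicle libraries (log2 fold change -0.27, SE 0.088; limma adjusted p 0.278). The gap between the highest rmMETRNL and the lowest vehicle value was narrow. Its voom adjusted p of 0.135 was the lowest that test gave any member. The gene (ENSMUSG00000002129) lies at chr11:4160350-4182541, plus strand. Sf3a2 had 8.47, 7.43 and 7.56 FPKM in rmMETRNL libraries, against 11.6, 8.75 and 8.66 FPKM in vehicle libraries (log2 fold change -0.27, SE 0.115; limma adjusted p 0.351). Vehicle library 1 stands apart from the others here, and without it the log2 fold change was -0.14. Sf3a2 shares 22.1% of its 31-base words with other genes, most with its neighbour Plekhj1. The remaining subunit, Sf3a3, overlapped between groups, at 9.66 ± 1.17 FPKM with rmMETRNL and 10.2 ± 1.02 FPKM with vehicle.

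The 250 bases before the RefSeq start (GRCm38.p6) are shown for Snrnp25 and Sf3a1 because they had the lowest adjusted p among members with limma and with voom, in that order. The windows are chr11:32205165-32205414 and chr11:4160104-4160353, both read on the plus strand, 5' to 3'; capitals mark matches to the CCAAT box (CCAAT, or ATTGG on the other strand), the GC box (GGGCGG) and an ETS-type motif (CCGGAAG), each searched on both strands.
Snrnp25 promoter: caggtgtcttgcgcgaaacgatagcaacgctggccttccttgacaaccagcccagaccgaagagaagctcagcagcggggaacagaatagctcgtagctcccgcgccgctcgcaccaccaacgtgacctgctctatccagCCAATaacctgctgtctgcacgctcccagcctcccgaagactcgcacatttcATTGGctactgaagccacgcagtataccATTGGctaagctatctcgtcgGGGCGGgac
Sf3a1 promoter: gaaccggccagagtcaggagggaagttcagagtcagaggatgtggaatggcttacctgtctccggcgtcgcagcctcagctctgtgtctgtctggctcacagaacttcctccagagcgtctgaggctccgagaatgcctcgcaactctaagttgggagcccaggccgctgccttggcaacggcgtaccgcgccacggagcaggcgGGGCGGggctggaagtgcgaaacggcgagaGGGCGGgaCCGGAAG
Neither holds a TATA box (TATAAA) or an E-box (CACGTG). The Snrnp25 window holds 3 CCAAT boxes and a GC box, and its GC content is 58.4%. The Sf3a1 window holds 2 GC boxes with the ETS-type motif at its very end, and its GC content is 64%. Of the 63 members matched by symbol to such a window, 28 held a CCAAT box (44.4%, against 36.2% of 6818 windows of tested protein-coding genes). The GC box was in 43 (68.3%, against 62.2%), the ETS-type motif in 19 (30.2%, against 15.9%), the TATA box in 6 (9.52%, against 6.00%) and the E-box in 5 (7.94%, against 9.37%). Median GC content was 58.4% against 60.4%, and the median number of CG pairs 19 against 17. These are matches of letters, not mapped binding sites.

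SF3b stood on both sides of 0. Sf3b1, the large scaffold that holds the branch-point duplex and a gene often mutated in human myeloid neoplasms, had 37.9, 40.2 and 42.8 FPKM in rmMETRNL libraries and 35.5, 38.3 and 38.6 FPKM in vehicle libraries (log2 fold change 0.10, SE 0.061; limma adjusted p 0.488). Sf3b5, a small SF3b subunit, had 11.9, 11.7 and 9.87 FPKM with rmMETRNL and 13.0, 11.1 and 12.2 FPKM with vehicle (log2 fold change -0.11; limma adjusted p 0.608). Both sets of values overlapped, and without rmMETRNL library 3 the log2 fold change of Sf3b5 was -0.030. Sf3b2 averaged 38.6 ± 1.34 FPKM with rmMETRNL and 37.8 ± 1.05 FPKM with vehicle, and Sf3b3 7.68 ± 0.334 and 7.24 ± 0.475 FPKM. Sf3b4 averaged 27.8 ± 2.92 FPKM with rmMETRNL and 27.7 ± 2.43 FPKM with vehicle, and Sf3b6, which touches the branch-point adenosine, 14.8 ± 1.07 and 14.9 ± 1.12 FPKM.

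The Prpf genes, named after yeast pre-mRNA processing factors, mostly act in the tri-snRNP and in the catalytic steps. Prpf4b, a kinase that phosphorylates other members of the class, had 6.85, 6.91 and 7.06 FPKM in rmMETRNL libraries and 7.81, 7.66 and 7.55 FPKM in vehicle libraries (log2 fold change -0.13, SE 0.048; limma adjusted p 0.317). Its groups did not overlap, and their within-group spread of 1.66% was under the counting error of 3.24%. Prpf31, which stabilises the tri-snRNP and is mutated in a form of human retinitis pigmentosa, had 4.34, 4.33 and 4.64 FPKM with rmMETRNL and 5.28, 5.16 and 4.69 FPKM with vehicle (log2 fold change -0.15, SE 0.064; limma adjusted p 0.342). Its highest rmMETRNL value and lowest vehicle value nearly touched, and 18.1% of its exon bases overlap Gm15927.

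Prpf19, a ubiquitin ligase needed to activate the spliceosome, had 4.32, 3.85 and 3.80 FPKM with rmMETRNL and 4.29, 4.68 and 4.44 FPKM with vehicle (log2 fold change -0.13; limma adjusted p 0.419). Only rmMETRNL library 1 reached the vehicle range. Prpf8, the U5 protein at the catalytic centre and the most abundant of the class, had 22.5, 21.6 and 27.1 FPKM with rmMETRNL and 24.6, 23.3 and 21.2 FPKM with vehicle (log2 fold change 0.037; limma adjusted p 0.895). Its rmMETRNL library 3 was the highest of the 6, and leaving that library out turned the log2 fold change to -0.059. Prpf3, Prpf4, Prpf6, Prpf18, Prpf38a, Prpf38b, Prpf39 and Prpf40b had log2 fold changes between -0.088 for Prpf39 and 0.090 for Prpf18, all with overlapping groups.

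**Figure D3:**
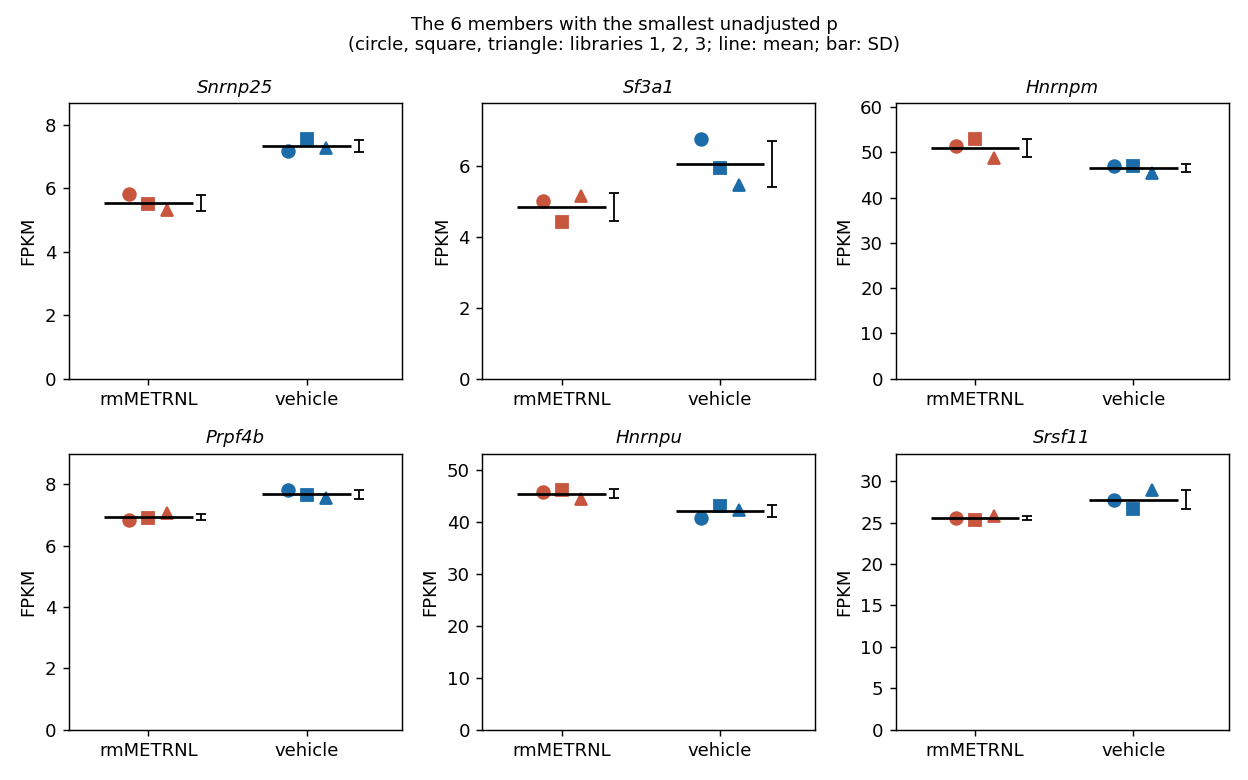
FPKM in each library of the 6 members with an unadjusted p under 0.05 (linear axes from 0); lines are means and bars SD, 3 libraries a group. In each panel the rmMETRNL points lie wholly on one side of the vehicle points: above it for Hnrnpm and Hnrnpu, below it for Snrnp25, Sf3a1, Prpf4b and Srsf11.

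Among the Hnrnp genes, 3 of 19 tested lay wholly above vehicle (10.9% of all tested genes did). Hnrnpm, which binds GU-rich intron sequence and in mouse macrophages is known to hold back Il6 splicing, had 51.3, 52.9 and 48.8 FPKM in rmMETRNL libraries and 47.0, 47.0 and 45.5 FPKM in vehicle libraries (log2 fold change 0.13, SE 0.046; limma adjusted p 0.2998). It shares 29.2% of its 31-base words with other genes. Hnrnpu, which binds nascent RNA and chromatin, had 45.7, 46.1 and 44.4 FPKM with rmMETRNL and 40.7, 43.0 and 42.3 FPKM with vehicle (log2 fold change 0.11, SE 0.043; limma adjusted p 0.325). Hnrnpf, which binds G-runs, had 84.5, 89.8 and 89.6 FPKM with rmMETRNL and 81.9, 65.4 and 80.9 FPKM with vehicle (log2 fold change 0.21, SE 0.090; limma adjusted p 0.342). Vehicle library 2 was far below the other 2, and without it the log2 fold change was 0.11; 70.6% of the words of Hnrnpf also occur in other genes.

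Hnrnpk, which binds C-rich RNA, had 87.1, 93.8 and 95.6 FPKM in rmMETRNL libraries and 82.7, 84.1 and 88.2 FPKM in vehicle libraries (log2 fold change 0.12; limma adjusted p 0.368). A near-copy annotated as a processed pseudogene, Gm7964, shares 36.1% of its words and was listed at 56.7, 60.5 and 59.5 FPKM with rmMETRNL and 52.7, 54.1 and 58.2 FPKM with vehicle, in the same order within each group except between rmMETRNL libraries 2 and 3. Hnrnpa0, a single-exon binder of AU-rich RNA and the most abundant of all members, had 119.8, 118.5 and 95.3 FPKM with rmMETRNL and 113.2, 108.1 and 110.4 FPKM with vehicle (log2 fold change 0.00034; limma adjusted p 0.999). Without its low rmMETRNL library 3, that value was 0.11. Hnrnpa1 averaged 63.3 ± 2.96 FPKM with rmMETRNL and 62.3 ± 1.83 FPKM with vehicle, and Hnrnpa2b1 38.3 ± 2.71 and 38.3 ± 2.10 FPKM. Hnrnpl, which represses Ptprc exons in lymphocytes, averaged 28.5 ± 0.534 FPKM with rmMETRNL and 28.8 ± 0.611 FPKM with vehicle, and its paralog Hnrnpll 11.5 ± 0.621 and 11.2 ± 1.01 FPKM. The tested Hnrnp genes not yet named here overlapped between groups and ranged in log2 fold change from -0.037 for Hnrnpdl to 0.11 for Hnrnph3.

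Among the SR proteins, Srsf9 and Srsf11 were apart from vehicle in opposite directions, 2 of 10 tested (20%, against 21.5% of all tested genes). Srsf9 had 45.3, 39.7 and 39.9 FPKM in rmMETRNL libraries and 38.6, 34.8 and 37.7 FPKM in vehicle libraries, making it the most abundant Srsf gene (log2 fold change 0.16, SE 0.069; limma adjusted p 0.345). Srsf11, a divergent member of the family, had 25.5, 25.2 and 25.7 FPKM with rmMETRNL and 27.7, 26.6 and 28.9 FPKM with vehicle (log2 fold change -0.12, SE 0.047; limma adjusted p 0.326). Srsf5 had 30.4, 31.7 and 30.3 FPKM with rmMETRNL and 26.3, 26.5 and 30.5 FPKM with vehicle (log2 fold change 0.15; limma adjusted p 0.368). Only vehicle library 3 reached the rmMETRNL range. Srsf3, which also takes part in mRNA export, had 11.4, 10.6 and 10.4 FPKM with rmMETRNL and 12.7, 10.8 and 13.2 FPKM with vehicle (log2 fold change -0.16; limma adjusted p 0.419). Srsf1, the founding SR protein, averaged 15.2 ± 1.33 FPKM with rmMETRNL and 15.02 ± 0.504 FPKM with vehicle. Srsf2, which binds both C-rich and G-rich exon motifs, averaged 29.4 ± 2.30 and 28.4 ± 1.79 FPKM. Srsf7 averaged 14.4 ± 0.849 FPKM with rmMETRNL and 14.3 ± 0.576 FPKM with vehicle, and Srsf6 15.3 ± 0.584 and 15.1 ± 0.949 FPKM.

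SR protein genes are known to limit their own levels by splicing in poison exons that send the transcript to nonsense-mediated decay. In GENCODE M21, 9 of 11 Srsf genes (81.8%) had a transcript annotated for nonsense-mediated decay, against 30.1% of 8525 tested protein-coding genes. The share was 10 of 20 for Hnrnp, 7 of 13 for Prpf, 4 of 12 for Snrp, 1 of 7 for Snrnp and 1 of 9 for Sf3, and 32 of 72 (44.4%) over all members. A retained-intron transcript was annotated for 51 of 72 (70.8%, against 61.7%). The deposited values are per gene, so a shift between coding and decay transcripts of a member would not show in them unless it changed the gene's total.

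The Snrp class holds the Sm proteins, which form the ring on most spliceosomal RNAs, and proteins of U1 and U2. None of its 11 tested genes was apart from vehicle (21.5% of all tested genes were). Snrpb, which encodes SmB and is the most abundant of the class, had 79.5, 82.3 and 72.9 FPKM in rmMETRNL libraries and 83.1, 75.3 and 72.3 FPKM in vehicle libraries (log2 fold change 0.025; limma adjusted p 0.904). Snrpd2 had 12.8, 14.3 and 10.6 FPKM with rmMETRNL and 12.5, 14.2 and 15.2 FPKM with vehicle (log2 fold change -0.15; limma adjusted p 0.607), and its log2 fold change was -0.24 without rmMETRNL library 2 and -0.039 without rmMETRNL library 3. The other SmD genes overlapped as well: Snrpd1 averaged 24.3 ± 2.00 FPKM with rmMETRNL and 26.1 ± 3.43 FPKM with vehicle, and Snrpd3 10.9 ± 0.493 and 11.7 ± 1.72 FPKM. Snrpb2, of U2, had 15.3, 14.7 and 14.4 FPKM with rmMETRNL and 11.7, 13.5 and 15.2 FPKM with vehicle (log2 fold change 0.13; limma adjusted p 0.547), which became 0.042 when vehicle library 1 was left out and 0.22 when vehicle library 3 was. Snrpa, the U1 protein A, had 9.44, 8.21 and 8.23 FPKM with rmMETRNL and 10.1, 8.43 and 9.39 FPKM with vehicle (log2 fold change -0.098; limma adjusted p 0.625), which became -0.16 when vehicle library 2 was left out and -0.042 when vehicle library 1 was. Snrpc, of U1, averaged 5.51 ± 0.154 FPKM with rmMETRNL and 5.57 ± 0.104 FPKM with vehicle, and Snrpa1, of U2, 3.81 ± 0.141 and 4.05 ± 0.346 FPKM.

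The genes of SmE, SmF and SmG stood out by their scatter within a group, and Snrpe and Snrpf were chosen for full description after their values were seen. Snrpg had 3.36, 9.70 and 2.58 FPKM in rmMETRNL libraries and 6.05, 14.3 and 12.5 FPKM in vehicle libraries. The groups overlapped, and the log2 fold change of -1.04 carried an SE of 0.46 (limma adjusted p 0.361), with a 95% interval of -2.15 to 0.063. The libraries of a group spread by 51.1%, where counting error would give 7.12%. Snrpe had 6.71, 15.05 and 10.6 FPKM with rmMETRNL and 6.88, 10.4 and 8.85 FPKM with vehicle (log2 fold change 0.23, SE 0.27; limma adjusted p 0.735), with a spread of 32.9% against a counting error of 6.96%; without rmMETRNL library 2 its log2 fold change was -0.025. Snrpf had 17.5, 13.8 and 12.6 FPKM with rmMETRNL and 14.7, 5.65 and 15.8 FPKM with vehicle (log2 fold change 0.36, SE 0.35; limma adjusted p 0.674), with a spread of 32.5% against 7.43%. Vehicle library 2 was the low one, and without it the log2 fold change of Snrpf was -0.068. No other tested member spread by more than 20%; the median was 6.72% for members and 8.34% for all tested genes.

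**Figure D4:**
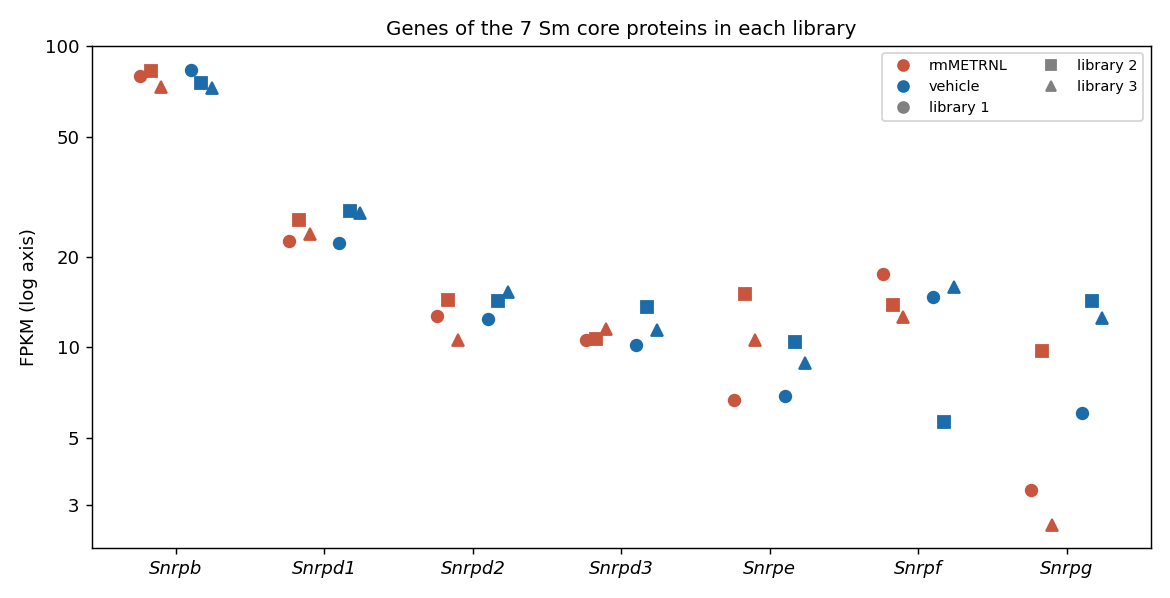
FPKM of the 7 Sm core genes in each library (log axis). Snrpb, Snrpd1, Snrpd2 and Snrpd3 stay close together in both groups, while Snrpe, Snrpf and Snrpg scatter within a group; Snrpg runs from 2.58 to 9.70 FPKM with rmMETRNL and from 6.05 to 14.3 FPKM with vehicle.

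For Snrpg, a near-copy was low in the libraries where Snrpg was high. Gm8186, on chromosome 17 and annotated as protein-coding, shares 19.6% of the 31-base words of Snrpg. It had 201, 88 and 185 reads in rmMETRNL libraries and 134, 61 and 98 reads in vehicle libraries, where Snrpg had 82, 239 and 60 reads and 144, 300 and 357 reads in the same order. In CPM (reads scaled to library size), the pair summed to 18.3, 20.8 and 16.5 with rmMETRNL and 18.5, 27.3 and 25.1 with vehicle, and the within-group spread of the sum was 16.9%, against 50.9% for Snrpg alone. With the reads summed, an alternative added after seeing the data, the log2 fold change was -0.31 (SE 0.15; limma adjusted p 0.394) in place of -1.04. Snrpert, a processed pseudogene that shares 25.7% of the words of Snrpe, had 78, 46 and 34 reads with rmMETRNL and 64, 113 and 111 reads with vehicle. Summing it with Snrpe left a spread of 25.6% and a log2 fold change of -0.0030 (limma adjusted p 0.996). For Snrpf, 85.4% of exon bases overlap Ccdc38, which was listed at no more than 0.179 FPKM in any library.

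**Figure D5:**
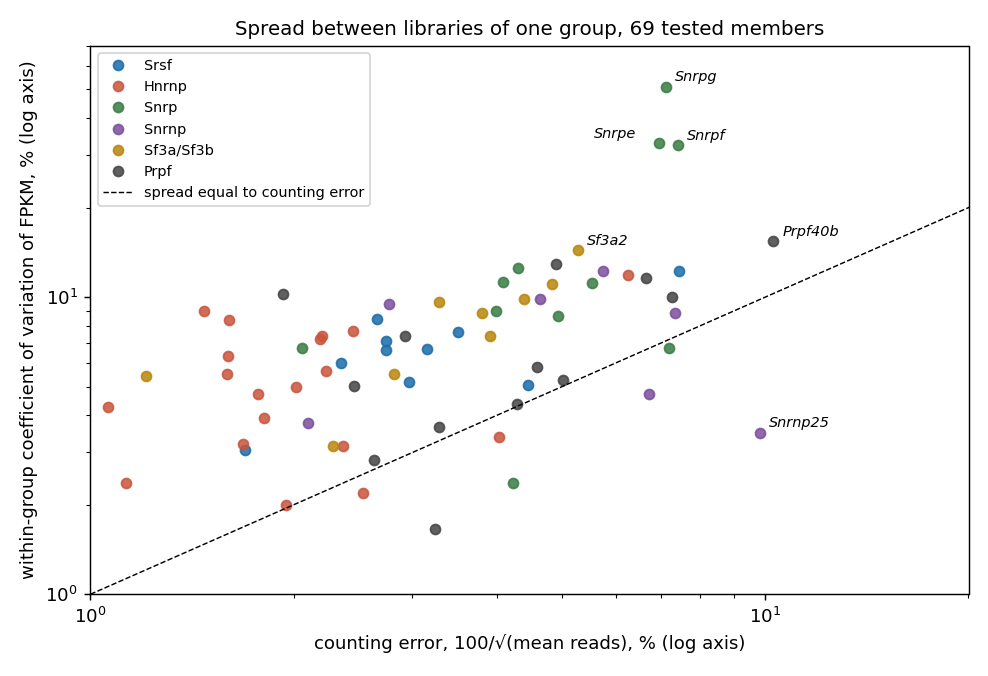
Within-group coefficient of variation of FPKM against the counting error expected from the mean reads, for the 69 tested members (log axes); the dashed line marks equality. Snrpg, Snrpe and Snrpf lie far above the line with spreads over 30%, and Snrnp25 lies furthest below it.

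In all, 26 of the 72 members shared over 10% of their words or exon bases with another annotated gene, 25 of them tested. Their median within-group spread was 7.61%, against 6.50% for the 44 other tested members. Levels of such genes depend on how reads that fit several places were counted, a step no source here describes. For Hnrnpa3, the near-copy Gm5641 was listed at 8.04, 11.4 and 9.24 FPKM in rmMETRNL libraries and 9.27, 1.41 and 7.79 FPKM in vehicle libraries, while Hnrnpa3 itself varied only from 7.32 to 7.70 FPKM with rmMETRNL and from 7.08 to 7.58 FPKM with vehicle.

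Other genes of the pathway were read from lists, chosen like the members with earlier results of these data known, and no gene of any list was called by limma or voom. Of 50 tested core spliceosome proteins outside the prefixes, 38 had a negative log2 fold change and the median was -0.063. At an unadjusted p under 0.05, 8 were lower and 1 higher (7.13% and 7.54% of all tested genes were), and 10 of the 50 lay wholly below vehicle and 3 wholly above (10.6% and 10.9% of all tested genes did). Dhx16, the helicase that activates the spliceosome, averaged 8.65 ± 0.722 FPKM with rmMETRNL and 10.4 ± 0.270 FPKM with vehicle (log2 fold change -0.25; limma adjusted p 0.238). Ddx23, a U5 helicase that frees the 5' splice site from U1, averaged 9.05 ± 0.439 and 10.6 ± 0.485 FPKM (log2 fold change -0.20; limma adjusted p 0.244). Isy1, a catalytic-stage factor, averaged 2.42 ± 0.199 FPKM with rmMETRNL and 3.07 ± 0.103 FPKM with vehicle (log2 fold change -0.25; limma adjusted p 0.245).

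Of 33 tested regulators of alternative splicing outside the classes, 20 were positive, with a median log2 fold change of 0.024. There 7 of the 33 lay wholly above vehicle and none wholly below (10.9% and 10.6% of all tested genes did), and 5 were higher at an unadjusted p under 0.05 (7.54% of all tested genes were). Celf1, a binder of GU-rich RNA, averaged 19.1 ± 0.774 FPKM with rmMETRNL and 17.05 ± 0.302 FPKM with vehicle (log2 fold change 0.16; limma adjusted p 0.263). Qk, the STAR-family regulator of monocyte to macrophage differentiation, averaged 12.5 ± 0.453 and 11.1 ± 0.516 FPKM (log2 fold change 0.15; limma adjusted p 0.302). Mbnl2 averaged 17.8 ± 1.98 FPKM with rmMETRNL and 15.2 ± 0.431 FPKM with vehicle (log2 fold change 0.21; limma adjusted p 0.322).

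Of 9 tested kinases that phosphorylate SR proteins, 6 were positive (48.4% of all tested genes were), with a median of 0.032; 3 lay wholly above vehicle and 1 wholly below (10.9% and 10.6% of all tested genes did). Clk2, which phosphorylates SR proteins in the nucleus, averaged 6.22 ± 0.140 FPKM with rmMETRNL and 6.98 ± 0.0812 FPKM with vehicle (log2 fold change -0.14; limma adjusted p 0.287). Dyrk1a averaged 11.3 ± 0.241 and 10.2 ± 0.234 FPKM (log2 fold change 0.14; limma adjusted p 0.292). Of 10 tested genes for snRNP assembly by the SMN complex, 7 were negative (median -0.085), and Smn1 itself averaged 4.93 ± 0.0509 FPKM with rmMETRNL and 5.42 ± 0.477 FPKM with vehicle (log2 fold change -0.11; limma adjusted p 0.506). Tgs1 alone of these 10 lay wholly above vehicle, and none lay wholly below (10.9% and 10.6% of all tested genes did). It averaged 5.28 ± 0.0940 FPKM with rmMETRNL and 4.79 ± 0.288 FPKM with vehicle (log2 fold change 0.12, limma adjusted p 0.418). Phax overlapped between groups, at 10.9 ± 0.783 and 12.6 ± 1.19 FPKM in that order (log2 fold change -0.18, limma adjusted p 0.370). All 8 exon junction complex genes overlapped between groups (median -0.037). Of the 10 nonsense-mediated decay factors 7 were positive (48.4% of all tested genes were), with a median of 0.043. Upf2 alone of these 10 lay wholly above vehicle, and none lay wholly below (10.9% and 10.6% of all tested genes did). Upf2 averaged 6.07 ± 0.183 FPKM with rmMETRNL and 5.40 ± 0.123 FPKM with vehicle (log2 fold change 0.14, limma adjusted p 0.314).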

How the data were processed

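RNA of 6 macrophage samples, 3 pretreated with rmMETRNL and 3 with vehicle, was sequenced after a TruSeq library preparation, per the labels' protocols. The authors deposited 1 table of FPKM values for 54532 genes; GRCm38 and mm10 are the builds in the submitters' processing notes. How reads were aligned and counted, and with what strand setting, is not given in the sources used here, so overlapping genes on opposite strands cannot be told apart. Start and end equalled GENCODE M21 for 98.3% of the matched genes. Each FPKM value times gene length was a whole multiple of a step per library, within 0.05 reads, which gave the reads behind it.

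The 9867 genes averaging 1 FPKM or more were fitted with limma 3.58.1 (R 4.3.3) on log2(FPKM + 1) with the mean-variance trend, two-sided, Benjamini-Hochberg adjusted, at 0.05. The scale understates changes of low genes. The fit was tested on simulated data in which all genes shared the same variation beyond read counting. The measured genes differed in spread, so no result here rests on that test. Shared sequence was counted in 31-base words of transcripts. Members and lists were chosen with earlier results of these data known. In full are named, in each class, the most abundant member and the 4 with the smallest p (2 in classes under 8 tested); up to 3 genes are named from other lists. A result that this rule would name is not reported here.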

Additional observations from a re-analysis of the deposited data

How the results depend on the processing

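No member was called in any of the 19 alternatives run, 1 of them added after seeing the data. The lowest adjusted p of a member in any of them was 0.0747, for Snrnp25 (limma, protein-coding genes alone), and 41 of the 69 members kept their sign in all. Alternatives that changed only the choice of genes, the variance trend or the replicate block left each log2 fold change as it was, so they could not change a sign. Summing near-copies altered only Snrpg and Snrpe. Over all tested genes, limma called 0 in the fit reported, 5 with no filter on low values, 1 after rescaling to TPM, 6 among protein-coding genes alone and 91 with voom on recovered reads; the cause was not tested. Leaving out single libraries called 0 genes and 0 members. For the member counts that follow, the share of all tested genes under the same alternative is not given here. The exception is voom at an unadjusted p under 0.05 (15.7% in either direction). The other counts therefore cannot be set against all tested genes. Members wholly above vehicle numbered 4, but 6 in TPM, 2 when those that share sequence were left out, since fewer members were then counted, and 4 to 10 with a library left out; members wholly below numbered 7, but 4 in TPM and 7 to 14 with a library left out, where 2 values stand against 3. At an unadjusted p under 0.05, the 2 higher members became 6 in TPM, 6 with voom, 0 without the mean-variance trend, 4 among protein-coding genes and 0 to 4 with a library left out; the 4 lower members became 2 in TPM, 7 with voom and 3 to 5 with a library left out.

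The Prpf median of -0.066 was -0.076 and -0.077 with pseudocounts of 0.1 and 0.01, -0.047 at a minimum of 5 FPKM, -0.053 in TPM, -0.074 with voom, -0.028 without sequence-sharing members and -0.078 to -0.028 with a library left out. With a library left out, the medians ran from -0.12 to -0.037 for Snrnp, from -0.063 to -0.0056 for Sf3, from -0.067 to -0.022 for Snrp, from -0.0053 to 0.045 for Srsf and from -0.0022 to 0.049 for Hnrnp. The Sf3 median turned positive in TPM (0.0084), with the length trend removed (0.0065) and without sequence-sharing members (0.0084), which also brought Snrp to -0.013. Log2 fold changes that changed sign when a library was left out ran from -0.057 to 0.11 for Hnrnpa0, -0.059 to 0.098 for Prpf8, -0.017 to 0.081 for Snrpb, -0.025 to 0.50 for Snrpe and -0.068 to 0.60 for Snrpf; that of Snrpe was also -0.0030 when summed with its near-copy. Snrpg ran from -1.52 to -0.73, Snrpb2 from 0.042 to 0.22, Snrpd2 from -0.24 to -0.039, Snrpa from -0.16 to -0.042, Sf3b5 from -0.16 to -0.030, Sf3b1 from 0.058 to 0.14, Snrnp35 from -0.22 to -0.086, Snrnp70 from -0.090 to -0.030, Srsf3 from -0.24 to -0.11 and Srsf9 from 0.10 to 0.19. The replicate numbers showed no shared effect: deviations of same-numbered libraries correlated at -0.021, 0.0074 and -0.045. Such values cannot tell whether the samples were paired. With the number as a replicate block, 0 genes and 0 members were called. Count tests other than voom were not run on the recovered reads. Counts of groups that do not overlap were not recomputed under quantile normalization or with the length trend removed. Depth limits low members most: 10 reads at 1 kb make 0.549 to 0.748 FPKM.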
